A study of Mus musculus with 12 samples.

Results

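Hippocampal RNA of DISC1 mutant mice was compared with that of control mice, all given vehicle. Membership followed the labels: the 3 libraries labelled as mutant and vehicle were set against the 3 labelled as control and vehicle, which is 6 of the 12 libraries of the series. Every gene of the table entered, and 15802 of its 23382 rows passed the filter on low counts. The mutant mice belong to a line labelled aDN-DISC1, whose vulnerability the series title describes as astrocyte-specific. All mice are of C57BL/6 background. The control libraries carry no genotype entry and were placed by their titles. The other 6 libraries come from control and mutant mice given Δ9-THC, the main psychoactive compound of cannabis, which the title places in adolescence; they entered the fit to estimate the spread and are quoted beside the vehicle values. The labels give no promoter for the transgene, no dose, age or sex, and nothing on what the vehicle was or whether animals were pooled. P-values therefore measure the spread between these libraries.

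DISC1 is a scaffold protein first found at a chromosomal breakpoint in a family with psychiatric illness. In astrocytes it binds serine racemase, the enzyme that makes D-serine, a co-agonist of the NMDA type of glutamate receptor. The hippocampus is the brain region in which many forms of memory depend on that receptor, and astrocytes there also respond to inflammatory signals through NF-kB, a family of transcription factors whose targets include the COX-2 gene Ptgs2.

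The mouse Disc1 gene (chromosome 8, 125048767 to 125265143, GRCm38.p6) did not mark the genotype. It was at 1.79, 2.58 and 2.40 CPM (counts scaled to a library of 1000000) in control vehicle 1 to 3 and at 2.78, 2.49 and 2.36 CPM in mutant vehicle 1 to 3. The groups overlapped, and the log2 fold change was 0.17 ± 0.24 (SE, adjusted p = 0.74, edgeR quasi-likelihood test with Benjamini-Hochberg adjustment). Whether this row would count reads from a transgene is not known here, so it checks nothing about the mutation. Srr, which encodes serine racemase, was at 86.8, 91.5 and 95.3 CPM in controls and 90.8, 86.9 and 87.0 CPM in mutants. Cnr1, which encodes the cannabinoid receptor CB1, was at 336, 313 and 355 CPM in controls and 323, 326 and 328 CPM in mutants. Neither passed (adjusted p = 0.74 and 0.94, edgeR).

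The 6 libraries held 37015107 to 39113364 expected counts, and hippocampal markers were present in all of them: the CA1 list summed to 812 to 1170 CPM, the CA3 and CA2 list to 889 to 979 CPM and the dentate granule list to 1080 to 1290 CPM. Markers of neighbouring tissue differed between the groups. All 20 genes of the choroid plexus list, the epithelium that makes cerebrospinal fluid, were higher in each mutant than in each control library. Summed, they were at 475 to 551 CPM in controls and at 6480, 11000 and 17700 CPM in mutant vehicle 1 to 3. The most abundant of them, the transthyretin gene Ttr, was at 53.4, 20.1 and 84.4 CPM in controls and 3640, 5240 and 9980 CPM in mutants. Under THC, Ttr was high in control THC 2 (5090 CPM beside 48.5 and 54.3) and low in mutant THC 2 (34.0 CPM beside 5970 and 2860), so high Ttr did not follow genotype under THC. Striatal neuron markers summed to 782 CPM in mutant vehicle 3 and to 309 to 341 CPM in the other 5 libraries. Meningeal and matrix markers were highest in mutant vehicle 1, at 1700 CPM beside 878 and 941 CPM in the other mutants and 560 to 721 CPM in controls. Fewer cells of a type and less RNA per cell cannot be told apart in bulk tissue.

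**Figure D1:**
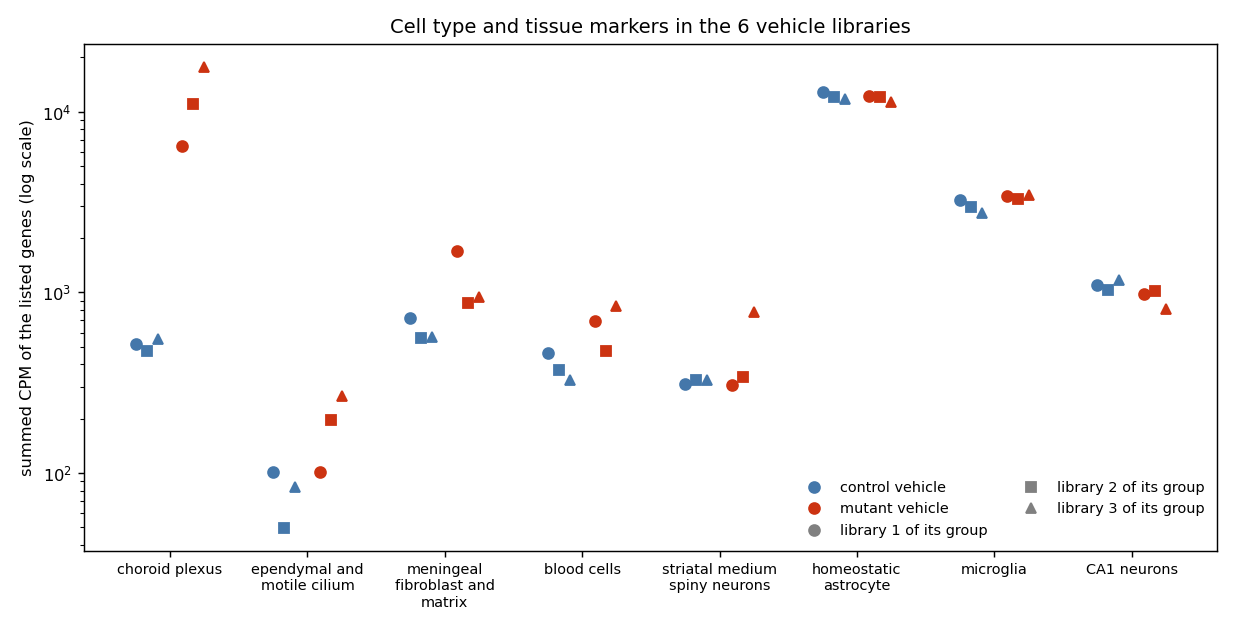
Summed CPM of the genes in 8 marker lists, on a log scale, for the 3 control vehicle libraries (blue) and the 3 mutant vehicle libraries (red); marker shape gives the library within its group. Choroid plexus markers sit at 475 to 551 CPM in controls and at 6480 to 17700 CPM in mutants, while astrocyte markers sit between 11400 and 12800 CPM in all 6.

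Across all genes, the 6 libraries separated by group along the first principal component of log2 CPM, which held 62.3% of the variance. Controls lay at -22.34, -37.53 and -28.74 on it and mutants at 10.62, 29.58 and 48.42, in the order of their choroid plexus levels. In the fit of all 12 libraries, 1 gene was higher in mutants past an adjusted p of 0.05 (0.00633% of genes tested) and 0 were lower. At an unadjusted p under 0.05, 1768 genes (11.2%) were higher and 1047 (6.63%) lower. All 3 mutants lay above all 3 controls for 2410 genes (15.3%) and below them for 2013 (12.7%). The second smallest adjusted p was 0.16, and 878 genes had one under 0.17. The fit of the 6 vehicle libraries alone, with 4 residual degrees of freedom in place of 8, called 497 genes higher (3.2%) and 26 lower (0.167%). That count fell to 0 without control vehicle 3, to 4 without control vehicle 1 and to 7 without control vehicle 2. It was 124 without mutant vehicle 2, 188 without mutant vehicle 3 and 1046 without mutant vehicle 1. DESeq2 on all 12 libraries called 630 higher (4.0%) and 151 lower (0.958%). Limma-voom called 0, with 1741 higher (11%) and 1049 lower (6.64%) at an unadjusted p under 0.05. With the choroid plexus score as a term edgeR called 0, with 310 higher (1.96%) and 288 lower (1.82%) at an unadjusted p under 0.05. Under vehicle that score was higher in every mutant than in every control, so it cannot be told apart from genotype there. Its slope comes from differences within the groups, which were widest under THC. Values given with this term are therefore not genotype effects freed of choroid plexus tissue. Below, a gene is said to pass only where it did so in the fit named beside it. Counts of list members without overlap are to be read beside the 15.3% and 12.7% over all genes tested. Those at an unadjusted p under 0.05 are to be read beside 11.2% higher and 6.63% lower. Those that passed in the vehicle-only fit are to be read beside 3.2% higher and 0.167% lower.

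Prm1, a sperm chromatin gene, was the 1 gene that passed in the 12-library fit. It encodes protamine, a small arginine-rich protein that replaces histones in sperm, and lies on chromosome 16 (10796332 to 10796823). Its coding sequence is shown because the finding rests on this row alone; arginine codons, 28 of its 52 codons, are in capitals (GENCODE M21 annotation, GRCm38, chr16:10796484-10796731, minus strand).
Prm1: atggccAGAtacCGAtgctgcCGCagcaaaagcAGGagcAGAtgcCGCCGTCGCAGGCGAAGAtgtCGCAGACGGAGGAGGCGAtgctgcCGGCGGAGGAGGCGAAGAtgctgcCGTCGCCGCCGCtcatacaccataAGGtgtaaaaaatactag
Prm1 had 0, 0 and 1 counts in control vehicle and 259 counts in all in mutant vehicle, which is 2.91, 2.35 and 1.55 CPM in mutant vehicle 1 to 3. The groups lay far apart, and mutant vehicle 1, the lowest of the 3 mutants in choroid plexus markers, had the most. The ratio of summed counts per effective library size was 258, with an exact 95% counting interval of 45.8 to 10212, which covers counting error only. The fitted log2 fold change was 7.55 ± 0.78 (SE, adjusted p = 0.017, edgeR). With 1 count in all controls that fitted value depends on the prior count.

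Under THC, Prm1 separated the genotypes in the same way, at 0.0279, 0 and 0 CPM in controls and 3.06, 0.995 and 1.88 CPM in mutants. Prm1 did not follow Ttr: mutant THC 2, with 34.0 CPM of Ttr, had 0.995 CPM of Prm1, and control THC 2, with 5090 CPM of Ttr, had 0. Prm2 and Tnp1, other genes of sperm chromatin, were at 0 in all 6 vehicle libraries. Of the 12 genes of the sperm chromatin list, 2 passed the filter on low counts, Prm1 and Spata18. As background, the 3′ end of Prm1 serves as a polyadenylation signal in some transgene vectors. The labels do not describe the transgene, and where in Prm1 the reads lie was not tested. The adjusted p was above 0.05 without any 1 of the control vehicle libraries (0.19, 0.24 and 0.32), without mutant vehicle 1 (0.079), without control THC 1 (0.081), by limma-voom (0.15) and with the choroid plexus term (0.86). The log2 fold change was 7.11, 7.12 and 9.4 without control vehicle 1, 2 or 3, 7.33 without mutant vehicle 1, 7.53 without control THC 1, 6.86 by limma-voom and 6.61 ± 1.01 (SE) with the choroid plexus term.

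**Figure D2:**
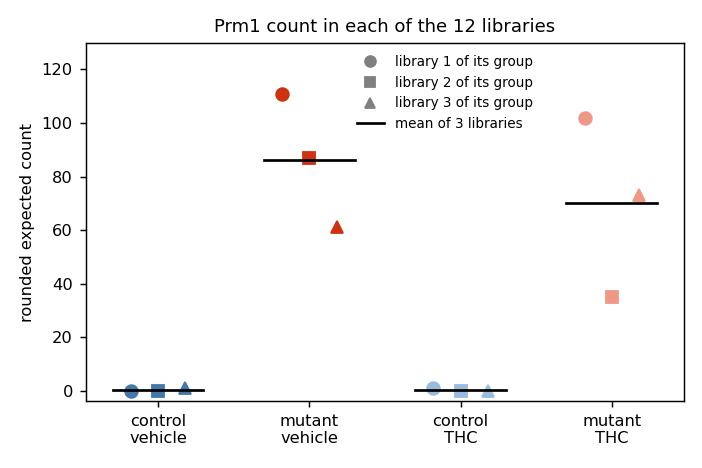
Rounded expected counts of Prm1 in all 12 libraries, by genotype and treatment; shapes mark the library within its group and bars the mean of 3. Each control library has 0 or 1 count, and the 3 mutant vehicle libraries together have 259.

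Genes of antigen presentation, complement and the interferon response were among those with the smallest p-values. Promoter stretches of 6 of them are given here because they hold the textbook elements of these pathways. Each is the 150 bases just before the annotated start, from RefSeq (GRCm38.p6), printed in the direction of transcription, with matches to the motifs described under them in capitals.
H2-Aa, chr17:34287824-34287973, minus strand: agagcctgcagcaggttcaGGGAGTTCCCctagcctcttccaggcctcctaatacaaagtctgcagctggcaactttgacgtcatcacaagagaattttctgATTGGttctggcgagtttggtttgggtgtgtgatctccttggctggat
H2-Eb1, chr17:34305717-34305866, plus strand: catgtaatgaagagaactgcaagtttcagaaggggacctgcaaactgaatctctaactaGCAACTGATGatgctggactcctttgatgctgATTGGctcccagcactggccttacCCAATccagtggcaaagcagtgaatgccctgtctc
H2-DMb1, chr17:34153041-34153190, plus strand: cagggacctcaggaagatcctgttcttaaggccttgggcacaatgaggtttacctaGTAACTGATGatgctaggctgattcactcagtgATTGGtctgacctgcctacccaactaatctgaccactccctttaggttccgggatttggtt
B2m, chr2:122147537-122147686, plus strand: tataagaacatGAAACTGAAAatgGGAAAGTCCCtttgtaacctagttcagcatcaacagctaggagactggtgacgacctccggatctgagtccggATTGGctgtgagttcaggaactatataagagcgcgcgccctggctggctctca
Igtp, chr11:58199406-58199555, plus strand: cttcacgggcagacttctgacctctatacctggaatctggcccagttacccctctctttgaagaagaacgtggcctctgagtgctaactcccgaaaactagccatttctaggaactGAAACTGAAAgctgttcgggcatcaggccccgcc
Irgm2, chr11:58214827-58214976, plus strand: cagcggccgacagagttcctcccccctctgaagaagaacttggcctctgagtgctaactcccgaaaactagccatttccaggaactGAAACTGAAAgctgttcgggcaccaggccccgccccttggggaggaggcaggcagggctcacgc
In the class II genes the capitals mark CCAAT (or its complement ATTGG), the box bound by NF-Y. In H2-Eb1 and H2-DMb1 they also mark a core of the X box bound by RFX (G, any base, AAC, any base, GATG), of which H2-Aa had no match. The first run of capitals in H2-Aa is an NF-kB motif (GGG, any 2 bases, TT, any base, CC). In B2m they mark CCAAT and, both on the opposite strand, the interferon-stimulated element (TTTC, any 2 bases, TTTC) and the NF-kB motif. In Igtp and Irgm2 they mark the interferon-stimulated element. Both strands were searched, over 250 bases before the start of 12339 tested genes with a promoter in the table. The interferon-stimulated element was found in 3.08% of these promoters and in 13 of the 25 of the interferon-induced list. CCAAT was found in 40.2% and in 10 of 12 of the class II list, the X box core in 0.697% and in 3 of those 12, and the NF-kB motif in 5.54%. Among genes called higher in the vehicle-only fit, 5.57% of 377 promoters held the interferon-stimulated element, 8.75% the NF-kB motif and 37.9% CCAAT. A match describes the letters and shows no binding.

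MHC class II molecules present peptides from engulfed material to helper T cells, and Cd74 is the invariant chain that escorts them. Cd74 and 3 genes of the chains of I-A and I-E were higher in all 3 mutants than in any control. Cd74 was at 2.24, 1.56 and 1.99 CPM in control vehicle 1 to 3 and at 7.14, 4.08 and 6.62 CPM in mutant vehicle 1 to 3. No control reached the lowest mutant, and the mean ratio was 3.08. The log2 fold change was 1.62 ± 0.28 (SE), with an adjusted p of 0.16 in the 12-library fit and 0.017 in the vehicle-only fit (edgeR). H2-Aa, the alpha chain of I-A, was at 1.16, 0.94 and 1.09 CPM in controls and 4.23, 2.32 and 3.98 CPM in mutants. H2-Ab1, its beta chain, was at 0.948, 0.886 and 1.16 CPM in controls and 3.28, 1.67 and 2.92 CPM in mutants. H2-Eb1, the beta chain of I-E, was at 1.16, 0.994 and 0.905 CPM in controls and 3.1, 2.30 and 2.69 CPM in mutants. The same order of libraries recurred in these genes, with mutant vehicle 2 the lowest mutant for each. H2-DMb1, part of the peptide exchanger H2-DM, was at 1.58, 1.13 and 1.11 CPM in controls and 2.18, 2.76 and 3.12 CPM in mutants, here in the order of their choroid plexus levels. H2-DMa, which encodes the other chain of that exchanger, was at 6.24, 5.29 and 5.71 CPM in controls and 5.99, 4.86 and 5.17 CPM in mutants; the groups overlapped, at a log2 fold change of -0.11 ± 0.12 (SE; 0.04 with the choroid plexus term). Ciita, the master activator of class II transcription, was at 0.103 to 0.211 CPM in controls and 0.330 to 0.394 CPM in mutants.

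Of the 16 tested members of the class II list, 6 were higher without overlap (Cd74, H2-Aa, H2-Eb1, H2-Ab1, H2-DMb1 and Ciita), all at an unadjusted p under 0.05, and 5 of these passed in the vehicle-only fit (Ciita did not, adjusted p = 0.12). The median of the list was 0.08, beside -0.01 over all genes tested, and its members outside those 6 included the X and Y box factors Rfx5 (-0.07), Nfya (0.14) and Nfyb (-0.05) and the protease gene Ctss (0.15). Mutant vehicle 1, the mutant vehicle library with the least Ttr, had the most Cd74, H2-Aa, H2-Ab1 and H2-Eb1 and the least H2-DMb1. With the choroid plexus score in the model, the log2 fold change of Cd74 was 1.48 ± 0.40 (SE, adjusted p = 0.99) and that of H2-Aa 1.21 ± 0.42 (SE, adjusted p = 0.99). H2-DMb1 was at 0.33 ± 0.38 in that model. Border macrophage markers, which mark cells of the meninges and choroid plexus that carry class II, summed to 44.1 to 49.7 CPM in controls and 50.6 to 63.6 CPM in mutants, lowest in mutant vehicle 2 among the mutants as for class II. Their part in these values was not tested.

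MHC class I molecules show peptides from inside the cell to cytotoxic T cells, with B2m as their light chain. B2m was at 60, 55.9 and 58.3 CPM in controls and 75.9, 67.3 and 79.1 CPM in mutants. H2-K1, a classical heavy chain, was at 24.1, 22.7 and 21.2 CPM in controls and 31.6, 27.5 and 30.2 CPM in mutants. Erap1, which trims peptides in the endoplasmic reticulum, was at 15.1 to 16.0 CPM in controls and 20.4 to 23.1 CPM in mutants. In each of these genes every mutant lay above every control, with log2 fold changes of 0.35 ± 0.08, 0.39 ± 0.08 and 0.45 ± 0.09 (SE). Each passed in the vehicle-only fit (adjusted p = 0.041, 0.04 and 0.028) and not in the 12-library fit (0.16 for each, edgeR). H2-D1, the other classical heavy chain, was at 32.1, 26.2 and 29.5 CPM in controls and 41.2, 28.7 and 35.7 CPM in mutants, and the groups overlapped. Heavy chain genes are near-identical copies, so the split of reads between them is uncertain. Of the 21 tested members of the class I and peptide loading list, 11 were higher and 1 lower without overlap, 10 were higher at an unadjusted p under 0.05, and the median was 0.27 (0.14 with the choroid plexus term).

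Complement genes encode the cascade that tags cells and synapses for removal. C3, the central component, was at 1.79, 1.64 and 1.06 CPM in controls and 3.96, 5.19 and 5.05 CPM in mutants. The mean ratio was 3.16 and the log2 fold change 1.66 ± 0.36 (SE, adjusted p = 0.16 in the 12-library fit and 0.017 in the vehicle-only fit, edgeR). Serping1, the C1 inhibitor, was at 6.58, 6.53 and 6.25 CPM in controls and 13.7, 9 and 11.3 CPM in mutants. C1rl, related to the C1r protease, was at 0.269 to 0.369 CPM in controls and 0.893 to 1.17 CPM in mutants. All 3 passed in the vehicle-only fit, as did the membrane inhibitor genes Cd55 and Cd59a. Those last 2 ran with the choroid plexus level, Cd59a at 10.3, 17.6 and 25.0 CPM in mutant vehicle 1 to 3, and with the choroid plexus term they were at -0.03 ± 0.38 and 0.13 ± 0.32 on the log2 scale.

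The C1q genes, which microglia make, did not pass in either fit. C1qa was at 52.7, 50.2 and 48.4 CPM in controls and 59.7, 52.9 and 54.4 CPM in mutants, and C1qc at 39.8 to 47.6 CPM and 46.9 to 49.9 CPM. C2, the classical pathway protease gene, was at 1.63, 0.994 and 1.40 CPM in controls and 4.46, 2.00 and 1.72 CPM in mutants, so its mean rests on mutant vehicle 1. Of the 24 tested complement genes, 12 were higher without overlap and 0 lower. At an unadjusted p under 0.05, 11 were higher, beside 11.2% of all genes tested. In the vehicle-only fit 6 of the 23 complement genes tested there passed, beside 3.2% of all genes called higher. The list median was 0.44 (0.17 with the choroid plexus term). C3 and Serping1 were at 1.57 ± 0.55 and 0.95 ± 0.28 (SE) with that term, neither past an adjusted p of 0.05.

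Interferon-induced genes were higher by smaller amounts. Irgm2, an interferon-inducible GTPase gene, was at 3.24, 3.55 and 3.64 CPM in controls and 5.41, 5.59 and 5.63 CPM in mutants. Choroid plexus markers summed to 6480, 11000 and 17700 CPM in those 3 mutant libraries. Any part of choroid plexus tissue in the Irgm2 values was not tested. The log2 fold change of Irgm2 was 0.67 ± 0.12 (SE, adjusted p = 0.16 in the 12-library fit and 0.025 in the vehicle-only fit, edgeR), and 0.71 ± 0.19 with the choroid plexus term. Trim30a, a restraint on inflammatory signalling, was at 2.04 to 2.31 CPM in controls and 3.44 to 4.21 CPM in mutants. Igtp, another such GTPase gene, was at 3.55, 2.28 and 2.92 CPM in controls and 4.75, 5.56 and 4.29 CPM in mutants. Gbp2, a guanylate-binding protein gene, was at 4.32 to 5.58 CPM in controls and 6.72 to 7 CPM in mutants. Ifitm2, which blocks virus entry, was at 4.49 to 4.95 CPM in controls and 6.78 to 10.7 CPM in mutants. Trim30a and Ifitm2 passed in the vehicle-only fit, while Igtp and Gbp2 did not (adjusted p = 0.077 and 0.071).

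The RNA sensor genes Ddx58 (RIG-I) and Ifih1 (MDA5) were at 7.42 to 7.98 and 6.95 to 7.14 CPM in controls and at 9.58 to 11 and 9.56 to 10.9 CPM in mutants, and both passed in the vehicle-only fit. Ifnar2, a chain of the type I interferon receptor, was at 21.2, 20.2 and 19.9 CPM in controls and 25.5, 24.7 and 26.1 CPM in mutants. Its log2 fold change of 0.31 ± 0.05 (SE) was small and its spread smaller still. Iigp1, a GTPase gene of the same family as Irgm2, was at 2.90 to 3.16 CPM in controls and 4.29 to 4.78 CPM in mutants. The groups overlapped for Isg15, a ubiquitin-like modifier gene, and Irf7, a transcription factor gene: Isg15 was at 0.510 to 0.853 CPM in controls and 0.609 to 0.919 CPM in mutants, and Irf7 at 1.42 to 2.11 and 1.32 to 2.76 CPM. Of the 33 tested interferon-induced genes, 18 were higher without overlap and 0 lower, 15 were higher at an unadjusted p under 0.05, 6 passed in the vehicle-only fit, and the median was 0.35 (0.28 with the choroid plexus term).

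**Figure D3:**
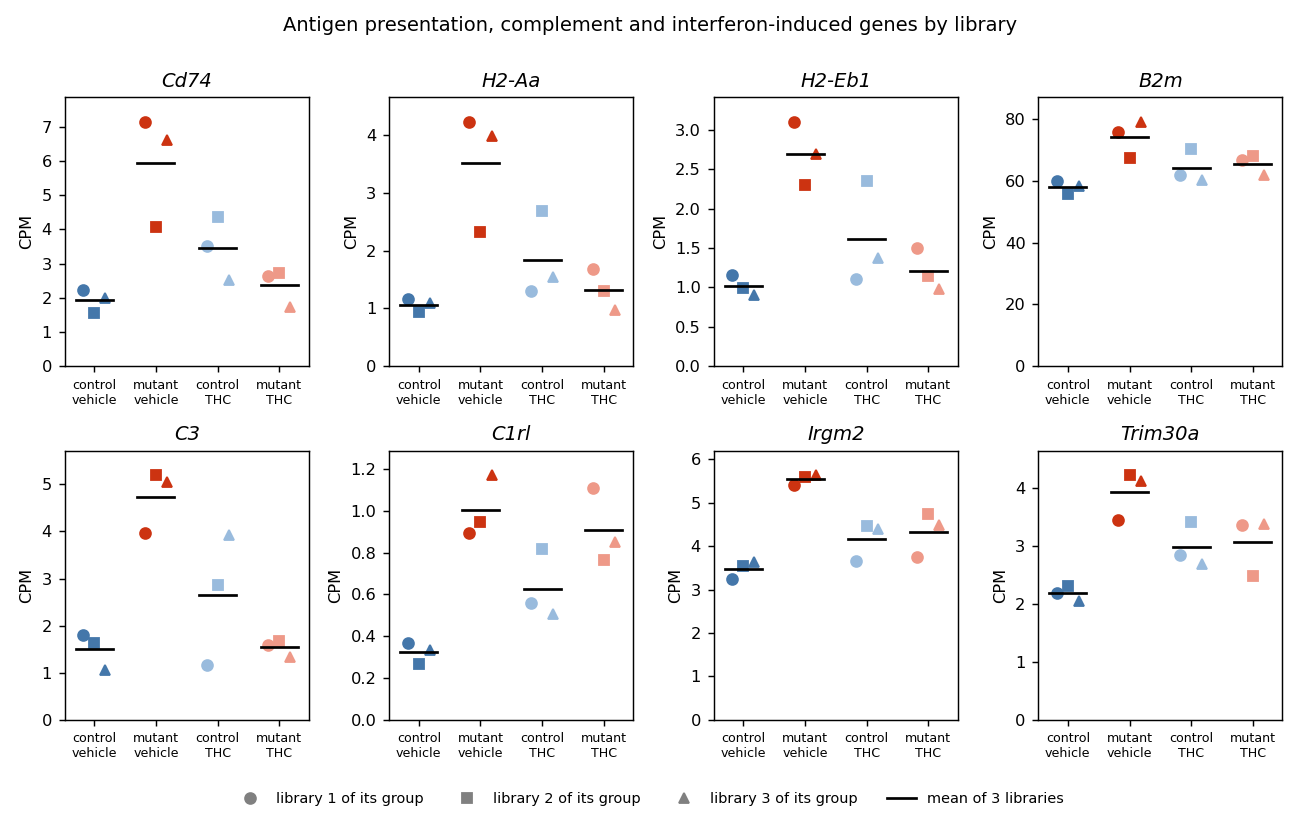
CPM of 8 genes of antigen presentation, complement and the interferon response in all 12 libraries; shapes mark the library within its group and bars the mean of 3. For each gene the 3 mutant vehicle libraries lie above the 3 control vehicle libraries, for Cd74 at 4.08 to 7.14 CPM against 1.56 to 2.24 CPM, while the THC groups overlap.

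Astrocytes are the cells named in the series title. Gfap, their filament gene, was at 471, 443 and 414 CPM in controls and 551, 484 and 463 CPM in mutants. The groups overlapped, and the log2 fold change of 0.17 ± 0.15 (SE, adjusted p = 0.57, edgeR) did not pass. Aldh1l1, a marker of all astrocytes, was at 77.6, 68.3 and 63.7 CPM in controls and 74.5, 75.3 and 73.3 CPM in mutants, and the glutamate transporter gene Slc1a2 at 3490 to 3720 and 3060 to 3460 CPM. The homeostatic astrocyte list of 25 genes had a median of 0.03, with 1 gene higher and 1 lower without overlap. Among genes of reactive astrocytes, Vim, an intermediate filament gene, was at 48.8, 38.8 and 39.1 CPM in controls and 62.3, 54.3 and 66.7 CPM in mutants (log2 fold change 0.53 ± 0.10, SE; 0.48 ± 0.16 with the choroid plexus term). Steap4, a metalloreductase gene, was at 0.211, 0.269 and 0.258 CPM in controls and 1.58, 2.00 and 2.87 CPM in mutants, and with the choroid plexus term its log2 fold change went from 3.11 ± 0.69 to 0.92 ± 0.41. Of the 34 tested genes of the reactive list, 13 were higher without overlap and 0 lower. At an unadjusted p under 0.05, 13 were higher. In the vehicle-only fit 6 of the 33 genes tested there passed. The list median was 0.25 (0.37 with the choroid plexus term). Serping1, H2-D1, Gbp2 and Iigp1, among others, also belong to the complement, class I or interferon lists, so the counts of these lists are not independent. The acute-phase gene Serpina3n, often the steepest reactive gene, was at 36.2 to 44.5 CPM in controls and 36.6 to 51.8 CPM in mutants.

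Cp, which encodes ceruloplasmin, a ferroxidase that astrocytes hold on their surface and that belongs to the reactive and the iron lists, had the smallest p of any gene above 1 CPM that did not pass in the 12-library fit. It was at 23.5, 18.9 and 19.3 CPM in controls and 35.7, 31.1 and 35.2 CPM in mutants. All mutants lay above all controls by more than the spread, with a log2 fold change of 0.73 ± 0.12 (SE, adjusted p = 0.16 in the 12-library fit and 0.017 in the vehicle-only fit, edgeR). Hfe, the haemochromatosis gene that sets hepcidin, was at 3.59 to 5.50 CPM in controls and 9.69 to 14.7 CPM in mutants, and Heph, the ferroxidase hephaestin, at 9.85 to 12.2 and 14.5 to 18.6 CPM. Steap2, an iron and copper reductase gene, was at 12.1 to 14.3 CPM in controls and 37.5, 68.4 and 81.6 CPM in mutants. With the choroid plexus term Cp was at 0.58 ± 0.17, while Hfe was at 0.31 ± 0.26, Heph at 0.17 ± 0.19 and Steap2 at -0.20 ± 0.17. Of 17 tested iron transport genes, 8 were higher without overlap, 0 lower, 4 passed in the vehicle-only fit, and the median was 0.19.

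Genes at the centre of the pathway named in the series title, NF-kB to COX-2, did not pass in either fit. Ptgs2, the COX-2 gene, was at 26.4, 33.4 and 32.9 CPM in controls and 34.9, 23.7 and 31.0 CPM in mutants, a log2 fold change of -0.05 ± 0.25 (SE, adjusted p = 0.94, edgeR). The sign of that value was positive in several alternative fits. Rela, the p65 subunit gene, was at 13, 13.3 and 13.7 CPM in controls and 13.7, 14.0 and 12.8 CPM in mutants. Nfkb1, the p50 precursor gene, was at 25.3, 23.2 and 22.8 CPM in controls and 26.4, 25.5 and 26.9 CPM in mutants, without overlap but by a log2 fold change of 0.14 ± 0.06 (SE, adjusted p = 0.24). Nfkbia, the inhibitor that NF-kB itself induces, was at 32.8, 27.2 and 28.3 CPM in controls and 34.3, 36.5 and 39.5 CPM in mutants (0.32 ± 0.11, SE, adjusted p = 0.18). Of 20 tested subunit and inhibitor genes, 4 were higher and 2 lower without overlap, with a median of 0.03. Of 19 tested NF-kB target genes, 4 were higher and 2 lower without overlap, with a median of 0.07. Both lists were near the shares over all genes tested, 15.3% higher and 12.7% lower without overlap. The 2 targets that passed in the vehicle-only fit were Tlr2, the receptor for bacterial lipoproteins, at 1.19 to 1.79 CPM in controls and 2.86 to 3.12 CPM in mutants, and Vcam1, an adhesion molecule gene that choroid plexus and vessels express, at 34.3 to 41.3 and 51.5 to 72.2 CPM.

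Some enzymes and transporters beside COX-2 were higher in mutants. Ptges, the prostaglandin E synthase gene that acts with COX-2, was at 4.21, 3.84 and 3.18 CPM in controls and 5.72, 4.78 and 5.17 CPM in mutants, a log2 fold change of 0.48 ± 0.14 (SE, adjusted p = 0.16 in the 12-library fit and 0.12 in the vehicle-only fit, edgeR). Abcc4, which exports prostaglandins, was at 11.7 to 15.2 CPM in controls and 18.5 to 25.8 CPM in mutants, the 1 gene of this pathway that passed in the vehicle-only fit. With the choroid plexus term it was at 0.17 ± 0.22. Ptgds, the prostaglandin D synthase gene, abundant in meninges and choroid plexus, was at 480, 361 and 349 CPM in controls and 1180, 491 and 522 CPM in mutants. Its mean rests on mutant vehicle 1, the library highest in meningeal markers. Of 24 tested genes of the COX-2 and prostanoid list, 9 were higher and 1 lower without overlap, 7 were higher at an unadjusted p under 0.05, and the median was 0.12.

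Some genes that glucocorticoids induce were higher in mutants. Sgk1, a kinase gene that corticosterone raises in the hippocampus, was at 98.7, 90.0 and 81.9 CPM in controls and 148, 173 and 215 CPM in mutants. Plin4, a lipid droplet coat gene, was at 3.29, 4 and 2.30 CPM in controls and 7.30, 8.21 and 7.2 CPM in mutants. Both passed in the vehicle-only fit (adjusted p = 0.017 and 0.018, edgeR). Ddit4, a stress-induced brake on mTOR, was at 42.6, 34.5 and 35.2 CPM in controls and 49.1, 46.5 and 52.0 CPM in mutants. Fkbp5, the chaperone gene used as a standard readout of the glucocorticoid receptor, was at 48.7 to 55 CPM in controls and 48.9 to 63.8 CPM in mutants, and Tsc22d3 at 90.3 to 106 and 106 to 107 CPM. Of 26 tested genes of the list, 7 were higher and 1 lower without overlap, 8 were higher at an unadjusted p under 0.05, and the median was 0.14. With the choroid plexus term Sgk1 was at 0.40 ± 0.29, Plin4 at 0.86 ± 0.51 and Ddit4 at 0.39 ± 0.13.

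Extracellular matrix and meningeal genes were higher in mutants. Emilin1, an elastic fibre gene, was at 3.37, 3.57 and 2.95 CPM in controls and 6.83, 5.97 and 6.24 CPM in mutants, and Mxra8, a matrix remodelling gene that also serves as an alphavirus receptor, at 5.92 to 7.01 and 12.2 to 15.4 CPM. Emilin1 had a log2 fold change of 0.94 ± 0.17 (SE), which was 0.89 ± 0.26 with the choroid plexus term. Slc13a4, a sulphate transporter gene of meninges and choroid plexus, was at 11.7 to 13.6 CPM in controls and 49.9, 50.8 and 68.0 CPM in mutants. Igf2, the growth factor gene of the same tissues, was at 22.6 to 27.7 CPM in controls and 73.7, 111 and 99.4 CPM in mutants. Lum and Ogn, small proteoglycan genes, were at 4.94 to 6.00 and 6.31 to 11.2 CPM in controls and at 9.43 to 14.5 and 18.4 to 28.7 CPM in mutants. Col1a1, the collagen gene of fibroblasts, was at 19.0, 12.3 and 14.0 CPM in controls and 49.6, 18 and 16.5 CPM in mutants, so only mutant vehicle 1 stood above the controls. Of the 18 genes of the meningeal list, 9 were higher without overlap, 0 lower, 5 passed in the vehicle-only fit, and the median was 0.62 (0.80 with the choroid plexus term).

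Further genes with small p-values and higher levels in mutants have other roles. Rnh1, the ribonuclease inhibitor gene, was at 32.9 to 35.8 CPM in controls and 41.8 to 46.3 CPM in mutants. Zmpste24, the protease gene that matures lamin A, was at 33.3 to 33.7 CPM in controls and 40.1 to 45.8 CPM in mutants. Gstt3, a glutathione transferase gene, was at 1.67 to 1.79 CPM in controls and 3.41 to 4.44 CPM in mutants, and Nt5dc2, a nucleotidase-like gene, at 4.52 to 6.42 and 9.32 to 13 CPM. Serpinb9, the granzyme B inhibitor gene, was at 9.67 to 10.2 CPM in controls and 12.4 to 16.6 CPM in mutants. All 5 passed in the vehicle-only fit and had an adjusted p of 0.16 in the 12-library fit.

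Lists of other cell types gave a mixed picture. For comparison, 15.3% of all genes tested were higher and 12.7% lower without overlap. Microglial genes (23 tested) had a median of 0.12, with 5 higher without overlap and 0 lower; the lysosomal protease genes Ctsz (29.8 to 35.2 CPM in controls, 41.3 to 45.3 in mutants) and Ctsd (371 to 409 and 499 to 641 CPM) passed in the vehicle-only fit, while the microglia-specific genes P2ry12 (41.8 to 45.6 and 41.8 to 50.6 CPM) and Tmem119 (20.8 to 26.5 and 24.0 to 28.3 CPM) overlapped. Border macrophage genes (11 tested) had a median of 0.46, with 3 higher without overlap. Oligodendrocyte and myelin genes (20 tested) had a median of 0.31, with 14 higher without overlap, 6 at an unadjusted p under 0.05 and 0 passed in the vehicle-only fit; with the choroid plexus term the median was -0.11. Ependymal and cilium genes (19 tested) had a median of 1.44, with 11 higher without overlap, and 0.21 with that term. Blood cell genes (9 tested) had a median of 0.79, with 5 higher without overlap. The 20 endothelial and pericyte genes had a median of -0.01, with 2 higher and 1 lower, and the 10 precursor genes of oligodendrocytes a median of 0.03, with 1 higher. The striatal list (14 tested) had a median of 0.80, which mutant vehicle 3 set, with 1 gene higher without overlap. The neocortical list (14 tested) had a median of -0.17, with 3 lower, and the thalamic list (11 tested) 0.18, with 1 lower.

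**Figure D4:**
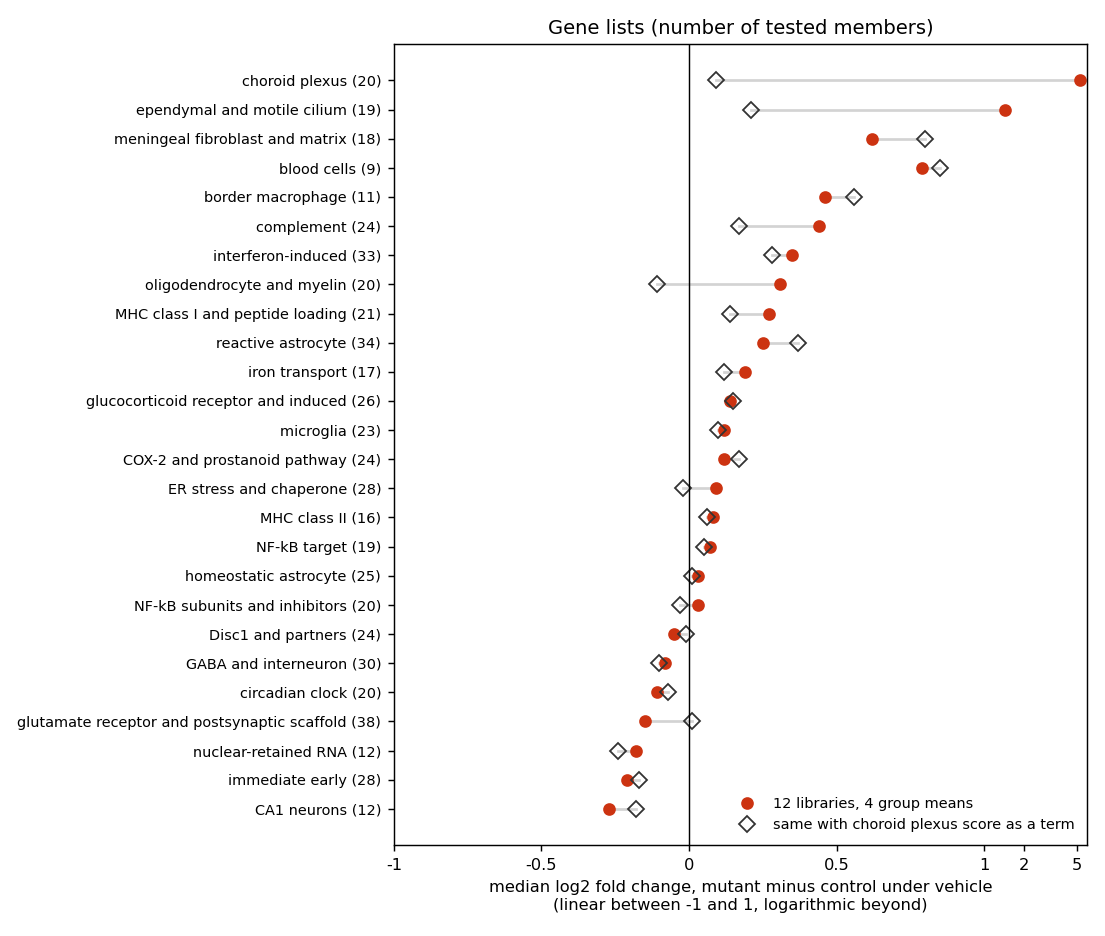
Median log2 fold change of the tested members of 26 gene lists, mutant minus control under vehicle, in the fit of all 12 libraries (filled circles) and with the choroid plexus score added as a term (open diamonds); the axis is linear from -1 to 1 and logarithmic beyond. The choroid plexus median goes from 5.23 to 0.09 and the ependymal median from 1.44 to 0.21, while the reactive astrocyte median goes from 0.25 to 0.37. The fall of the choroid plexus median was fixed in advance, because the score is the mean of that same list.

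Genes lower in mutants differed by small amounts. B4galnt4, a glycosyltransferase gene (chromosome 7, 141060978 to 141072400), had the smallest p among them. It was at 55.3, 54.9 and 57.4 CPM in controls and 46.5, 45.1 and 41.7 CPM in mutants, a log2 fold change of -0.33 ± 0.07 (SE, adjusted p = 0.16 in the 12-library fit and 0.032 in the vehicle-only fit, edgeR). Under THC it was again lower in mutants without overlap, at 54.5 to 60.4 CPM in controls and 41.2 to 48.5 CPM in mutants. Csmd1, a synaptic complement regulator gene linked to schizophrenia in genome-wide studies, was at 167, 192 and 194 CPM in controls and 145, 146 and 131 CPM in mutants. Mapk11, which encodes p38 beta kinase, was at 16.7, 17.1 and 18.9 CPM in controls and 13.2, 11.8 and 11.9 CPM in mutants. Mef2c, a transcription factor gene of excitatory neurons and microglia, was at 240, 220 and 243 CPM in controls and 188, 194 and 189 CPM in mutants. Hap1, the huntingtin-associated protein gene, was at 93.1, 92.9 and 94.2 CPM in controls and 66.6, 76.5 and 77.7 CPM in mutants. Each of these passed in the vehicle-only fit and none in the 12-library fit.

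Grm2, the presynaptic mGlu2 receptor gene, was at 40.5, 42.1 and 42.4 CPM in controls and 32.8, 34.1 and 30.1 CPM in mutants. It passed in the vehicle-only fit (adjusted p = 0.03, edgeR) and had an adjusted p of 0.46 in the 12-library fit, where control THC libraries spread from 39.0 to 52.6 CPM and mutant THC libraries from 15.9 to 37.7 CPM. Fcho1, an endocytosis gene, was at 31.1 to 35.9 CPM in controls and 23.2 to 24.9 CPM in mutants, Wsb1, a ubiquitin ligase adaptor gene, at 55.5 to 66.8 and 43.9 to 47.1 CPM, and Lrrc75a at 8.92 to 9.78 and 6.19 to 7.10 CPM; all 3 passed in the vehicle-only fit. Suv39h1, the histone H3 lysine 9 methyltransferase gene, was at 22.5, 23.4 and 23.4 CPM in controls and 19.8, 18.9 and 19.3 CPM in mutants, Cbx7, a Polycomb reader gene, at 35.1 to 36.9 and 29.3 to 30.7 CPM, and Chrnb2, a nicotinic receptor subunit gene, at 80.2 to 82.6 and 66.5 to 70.5 CPM. Slc2a3, the neuronal glucose transporter gene, was at 150 to 167 and 126 to 134 CPM. These last 4 did not pass in either fit. The 26 genes called lower in the vehicle-only fit had a median of -0.38, and -0.38 with the choroid plexus term. With that term 13 of them were at an unadjusted p under 0.05, beside 598 of the 15802 genes tested, in either direction. The 26 were called on the same vehicle libraries, so these values are no separate test of them.

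**Figure D5:**
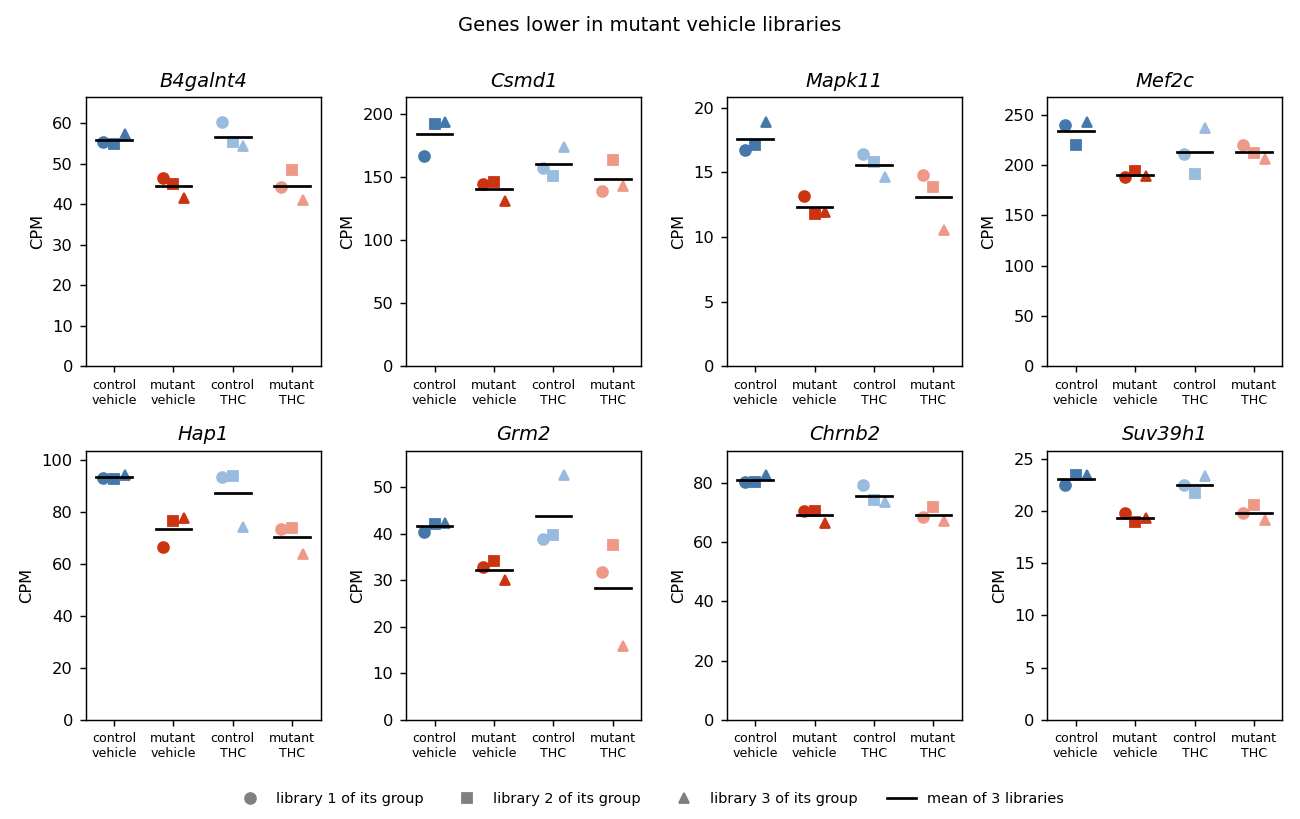
CPM of 8 genes lower in mutant than control libraries under vehicle, in all 12 libraries; shapes mark the library within its group and bars the mean of 3. B4galnt4 lies at 54.9 to 57.4 CPM in control vehicle and 41.7 to 46.5 CPM in mutant vehicle, with a similar gap under THC.

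Among 5 lists of synaptic and hippocampal neuron genes, 3 medians were below 0 and 2 just above it. Without overlap, 15.3% of all genes tested were higher and 12.7% lower. Of 38 tested genes of glutamate receptors and the postsynaptic scaffold, 35 had a log2 fold change below 0, 10 were lower without overlap and 0 higher, 2 were lower at an unadjusted p under 0.05, and the median was -0.15. Grm7, the mGlu7 receptor gene, was at 88.8, 95.8 and 103 CPM in controls and 86.6, 78.0 and 80.2 CPM in mutants. Dlg2, the scaffold PSD-93, was at 344, 362 and 387 CPM in controls and 327, 331 and 306 CPM in mutants, and Gria3, an AMPA receptor subunit gene, at 229 to 246 and 204 to 219 CPM. With the choroid plexus term the median of this list was 0.01. Grm2 was its 1 member that passed in the vehicle-only fit. Of 30 GABA and interneuron genes, 1 was higher and 5 lower without overlap, with a median of -0.08. CA1 markers (12 tested) had a median of -0.27, with 1 lower: Wfs1 was at 118, 113 and 125 CPM in controls and 94.8, 92.4 and 71 CPM in mutants. It was lowest in mutant vehicle 3, the vehicle library highest in striatal markers. Any part of striatal tissue in the Wfs1 values was not tested. The CA3 and CA2 list (14 tested) had a median of 0.01, with 2 higher, and the dentate granule list (14 tested) 0.04, with 1 higher.

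Immediate early genes, which neuronal activity switches on within minutes, had a median of -0.21 over 28 genes, with 2 higher and 5 lower without overlap and 4 lower at an unadjusted p under 0.05. The shares over all genes tested were 15.3% higher and 12.7% lower without overlap. Npas4 was at 7.56, 10.3 and 9.62 CPM in controls and 7.04, 7.37 and 5.66 CPM in mutants, and Egr3 at 11.2, 12.6 and 12 CPM and 10.3, 9.43 and 7.89 CPM. Of 12 tested nuclear-retained RNAs, 5 were lower without overlap and at an unadjusted p under 0.05, and the median was -0.18. Meg3 was at 469, 967 and 494 CPM in controls and 367, 370 and 308 CPM in mutants, and Snhg11 at 237, 442 and 296 and at 179, 217 and 149 CPM. Their control means rest in part on control vehicle 2, which was also the highest control for Mirg (7.98 CPM beside 5.42 and 6.90) and Miat (295 CPM beside 155 and 174). Rian, from the same imprinted region as Meg3, was at 489, 503 and 515 CPM in controls and 397, 431 and 399 CPM in mutants and passed in the vehicle-only fit (adjusted p = 0.036, edgeR). Overlap with other transcripts and the strand used in counting leave such RNAs uncertain.

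The remaining lists had medians between -0.11 and 0.09. Their counts without overlap stand beside 15.3% higher and 12.7% lower over all genes tested. Disc1 and its partners (24 tested) had a median of -0.05, with 2 higher and 6 lower without overlap; the centrosomal scaffold gene Pcnt, whose product binds DISC1, was at 60.5, 60.8 and 60.4 CPM in controls and 52.5, 54.1 and 49.2 CPM in mutants (log2 fold change -0.22 ± 0.07, SE, adjusted p = 0.17, edgeR). The D-serine and glycine list (14 tested) had a median of 0.07, with 3 higher and 1 lower, and the endocannabinoid list (15 tested) -0.05, with 2 higher and 1 lower. Clock genes (20 tested) had a median of -0.11, with 4 lower; Per2 was at 26.3 to 30.1 CPM in controls and 21.3 to 23.2 CPM in mutants and did not pass. Chaperones of the endoplasmic reticulum (28 tested) had a median of 0.09, with 7 higher and 1 lower, respiratory chain genes (34 tested) 0.04, with 5 higher and 1 lower, and neurotrophin genes (13 tested) 0.07, with 3 higher and 1 lower. Neuregulin and ErbB genes (13 tested) had a median of 0.00, with 2 higher and 2 lower, and neurogenesis genes (16 tested) 0.02, with 0 higher and 1 lower.

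The THC libraries, in which high Ttr did not follow genotype, were set beside the calls of the vehicle-only fit, which used none of them. The 12-library fits also took their estimate of the spread from the THC libraries. Of the 497 genes called higher in the vehicle-only fit, control THC 2, the only control library with high Ttr, was the highest of the 3 control THC libraries for 436 (87.7%, beside 32.0% of all genes tested). Mutant THC 2, the mutant library with low Ttr, was the lowest of its group for 426 (85.7%, beside 35.5%). The 497 include all 20 genes of the choroid plexus list, Ttr among them. Each of these counts rests on 1 library. Any part of choroid plexus tissue in the calls was not tested. The median log2 fold change of the 497 genes was 1.09, and 0.19 with the choroid plexus term. For the 20 genes that make up the score, the fall was fixed in advance. With the term 58 of the 497 were at an unadjusted p under 0.05, beside 598 of the 15802 genes tested. The 497 were called on the same vehicle libraries, so this is no separate test of them. Between mutant and control under THC, 6 of the 497 were higher without overlap and 6 lower, or 1.21% each, beside 4.83% and 5.7% of all genes tested. Of the 26 genes called lower, 3 were lower without overlap under THC (B4galnt4, Hap1 and Grm2), or 11.5%. The test of the difference between the mutant effects under vehicle and under THC called 0 genes past an adjusted p of 0.05 (edgeR), and 1041 genes (6.59%) at an unadjusted p under 0.05. For Cd74 that difference was 2.18 ± 0.39 (SE, adjusted p = 0.48), and for Cp 0.97 ± 0.17 (SE, adjusted p = 0.48). Cd74 was at 2.52 to 4.37 CPM in control THC and 1.73 to 2.73 CPM in mutant THC, and Cp at 27.9 to 31.2 and 22.1 to 29.7 CPM.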

How the data were processed

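Hippocampal RNA was sequenced as paired ends after removal of ribosomal RNA, per the labels. The authors deposited expected counts for each row and library, in 1 table, with no scaling; the submitters' processing notes name Bowtie2 2.2.2, RSEM 1.2.21 and the build mm10. Rows are RefSeq transcript accessions, of which 23018 were named from RefSeq (GRCm38.p6), 129 from GENCODE and 235 not at all (0.73% of counts). RSEM shares ambiguous reads, so near-identical genes are uncertain.

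Counts were rounded, filtered with filterByExpr and scaled by TMM. Testing used edgeR 4.0.16 (R 4.3.3, quasi-likelihood F test) on 12 libraries and 4 group means, adjusted by Benjamini-Hochberg over 15802 genes. Log2 fold changes carry an SE taken from the F statistic. Alternatives were the 6 vehicle libraries alone (15529 genes), DESeq2 1.42.0, limma-voom (limma 3.58.1), other scalings and filters, leaving out each library, and the choroid plexus list score (mean log2 CPM, prior count 2) as a term. Vehicle library pairs differed far beyond counting noise (lowest chi-square per gene 12.1 over 15 pairs), so none was a repeat count of another. This cannot show that they came from separate animals. Each library was counted as 1 replicate. The code was tested on simulated data.

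The 40 gene lists and the genes given in every case were chosen with earlier results of these data known. Named genes were the 15 with the smallest p in each direction at 1 CPM or more, up to 6 members of a list by p (12 in 8 main lists), and members central to a list. Serpina3n, Fkbp5, Tsc22d3, Isg15, Irf7 and others were named for their textbook role, Fcho1, Mef2c, Hap1 and Spata18 after their values were seen. Of the genes taken by rank, 1 is not reported here.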

Additional observations from a re-analysis of the deposited data

Results flagged for a closer look

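In 5 of 95 named genes, every mutant library lay on one side of every control library under vehicle and on the opposite side under THC. Such reversals were not counted over all genes tested, so no background share stands beside the 5. Serping1 was at 9, 10.8 and 12.4 CPM in control THC and 7.81, 7.99 and 5.27 CPM in mutant THC, the reverse of its order under vehicle. The difference between the mutant effects (vehicle minus THC, log2 scale) was 1.43 ± 0.27 (SE, adjusted p = 0.48, edgeR). C2 was at 3.62, 1.95 and 2.78 CPM in control THC and 1.53, 1.73 and 0.594 CPM in mutant THC, a difference of 2.14 ± 0.63 (adjusted p = 0.66, edgeR). Iigp1 was at 3.6, 3.27 and 4.60 CPM and 3.21, 3.15 and 2.35 CPM, a difference of 0.97 ± 0.23 (adjusted p = 0.54, edgeR). Serpinb9 was at 12.5, 11.7 and 12.4 CPM and 11.5, 10.3 and 10 CPM, a difference of 0.74 ± 0.15 (adjusted p = 0.48, edgeR). Dlg2 went the other way, at 336, 316 and 345 CPM in control THC and 349, 363 and 420 CPM in mutant THC, a difference of -0.36 ± 0.11 (adjusted p = 0.66, edgeR). None of the 5 differences passed.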

How the results depend on the processing

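The count of 1 gene past an adjusted p of 0.05 became 523 with the 6 vehicle libraries alone, 781 with DESeq2, 0 with limma-voom and 0 with the choroid plexus term, and ran from 0 to 6 when each library was left out; 6 was reached without mutant THC 1, and 0 without any 1 of the control vehicle libraries, mutant vehicle 1 or control THC 1. DESeq2 and the vehicle-only fit shared 408 calls, 52.2% of the former and 78.0% of the latter. The vehicle-only count ran from 0 to 1046 when each of its libraries was left out, a set of fits added after seeing the data. At an unadjusted p under 0.05, 2815 genes became 598 with the choroid plexus term and ran from 1417 (without mutant vehicle 3) to 3206 (without mutant THC 3) when each library was left out. With that term the sign of 9 of 95 named genes turned: H2-DMa 0.04, Ttr -0.03, Cd55 -0.03, Aldh1l1 -0.12, Steap2 -0.20, Ptgs2 0.41, Rela -0.06, Gria3 0.01 and Srr 0.11. Ttr is part of that score, so its fall was fixed in advance. Over the fits without 1 library, Ptgs2 ran from -0.17 to 0.1 (0.02 and 0 when control vehicle 2 or 3 was dropped, 0.1 when mutant vehicle 2 was) and Cnr1 from -0.08 to 0 (without control vehicle 3), and Rela was at -0.01 without a filter and at 0 without mutant vehicle 2 or control THC 1. Other scalings turned no sign and ended no call. Among the 40 list medians, 12 went beyond their members' median SE with the choroid plexus term. Low genes such as Ciita and Prm1 rest on few counts. No paired analysis was possible because the labels' numbers do not recur between groups.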
